A study of Mus musculus with 12 samples.

Results

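Hearts of mice that carried the R211A form of integrin-linked kinase (ILK) were compared directly with hearts of mice that carried the S343D form. The comparison held 6 of the 12 hearts in the series, 3 from Tg R211A mice and 3 from Tg S343D mice, chosen by the genotype in the labels, with the 6 wild type (WT) littermate hearts as a reference for both lines. All were C57BL/6 mice of 8 to 9 weeks, and total RNA of each heart was hybridised to 1 Affymetrix array of mouse genes. The Tg mice were all labelled female, and 1 of the 6 WT mice was labelled male. Both lines over-expressed a mutant of human ILK specifically in the heart, and neither a promoter nor a number of founders per line was named in the labels or methods. The description of 1 WT heart names the left ventricle, whereas the other descriptions name the heart. The labels name no surgery, so no comparison by infarction was made. The hearts were numbered from 1 to 12 in the labels. The Tg R211A hearts shared the numbers 7 to 12 with 3 WT hearts, the second WT set, and the Tg S343D hearts shared the numbers 1 to 6 with the other 3, the first WT set, so that genotype and number range cannot be told apart in the direct comparison. No label calls a number range a batch.

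ILK sits at integrin adhesions, where it binds PINCH and parvin adaptors and links the matrix receptors to actin and, in muscle, to the costamere. Its S343D form is widely used as an activated mutant and its R211A form, altered in the pleckstrin homology-like region, as one that resists activation. Heat shock proteins are chaperones that hold or refold other proteins, and in stressed cells their genes are switched on together by heat shock factors, of which HSF1 is the best known. In heart muscle they also serve the folding of myosin and the turnover of the sarcomere. Whole-heart RNA was measured, so fewer cells of a type and less RNA per cell cannot be told apart.

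Of 45037 probe sets, the 22519 with a mean log2 signal over the 12 arrays at or above the median (5.44, a MAS5 signal of 43.5) were tested, and they read 11189 genes. MAS5 signal is a background-corrected intensity on a linear scale, and a signal of one gene cannot be set against that of another. Each array carried the same trimmed mean signal of 150, and the median signal was 41.5 to 46.5 in Tg R211A hearts and 45.1 to 49.1 in Tg S343D hearts. The ratios of 3' to 5' signal, a measure of RNA integrity, were 0.74 to 0.80 for Gapdh and 1.09 to 1.24 for beta-actin over the 12 arrays. The markers of ventricular cardiomyocytes were high in both lines, with a summed signal over 11 genes of 108814 to 122094 in Tg R211A hearts, 100514 to 109141 in Tg S343D hearts and 104254 to 124921 in WT hearts. Markers of the atria differed between hearts of the same line. Myl4, the atrial light chain, had signals of 4144, 395 and 768 in Tg R211A hearts and 2429, 4846 and 194 in Tg S343D hearts. The lines did not separate by these markers, and the part of atrial tissue in the results was not tested.

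Few genes were called between the lines, and those called higher in Tg R211A hearts were largely chaperones. In the simulated datasets described below, 29.2% of 1.5-fold changes were recovered, so genes that were not called may also differ. At a Benjamini-Hochberg adjusted p under 0.05 in limma's moderated test, 21 probe sets were higher in Tg R211A hearts (0.0933% of those tested) and 15 were lower (0.0666%), 0.16% in all. The 21 named 12 genes, of which 8 encode heat shock proteins or co-chaperones of Hsp90. The 15 named 10 genes, among them Angpt1 and Idh1. At an unadjusted p under 0.05 there were 960 higher and 942 lower probe sets. With every array centred on its median the split was 23 higher and 5 lower. The 3 Tg R211A values and the 3 Tg S343D values did not overlap in any of the 36 probe sets, against 15% of all probe sets tested. The same Tg hearts chose the 36, so this share is a description. Read from 1 probe set per gene, 11 genes were higher (0.0983%) and 6 were lower (0.0536%), 0.152% in all, and the median difference over all genes was -0.0040 on the log2 scale. The exact permutation test of 3 hearts against 3 cannot go below p = 0.1. Each of the 17 genes reached that value, as any gene without overlap does. The last probe set inside the threshold was one of Idh1 (adjusted p = 0.0471), and the nearest one outside it was an unnamed probe set at 0.0561, followed by one of Pfkl at 0.0589.

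The transgene was seen in both lines, at different levels. Ilk, the kinase that both lines over-express, had signals of 8223, 9553 and 8622 in Tg R211A hearts, 3258, 3272 and 4016 in Tg S343D hearts, and 551 to 657 in the 6 WT hearts. Every Tg R211A heart lay above every Tg S343D heart, and both lines lay far above WT. The difference between the lines was 1.33 on the log2 scale (SE 0.09, n = 3 each, adjusted p = 1.12e-05), a 2.51-fold higher signal in Tg R211A hearts. The array was designed on mouse genes, and how well its probes report the human transcript was not tested. The mutation and the level of the transgene both differed between the lines, and their parts in the results that follow cannot be told apart. Of the 11 measured genes of ILK and its binding partners, Ilk was the one that passed, and the list's median was 0.03. The adaptor Parvb differed by 0.30 (adjusted p = 0.30), Parva by 0.13, the PINCH genes Lims1 and Lims2 by 0.02 and 0.15, and the kindlin Fermt2 by -0.05. None of 17 integrin, talin and vinculin genes passed.

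**Figure D1:**
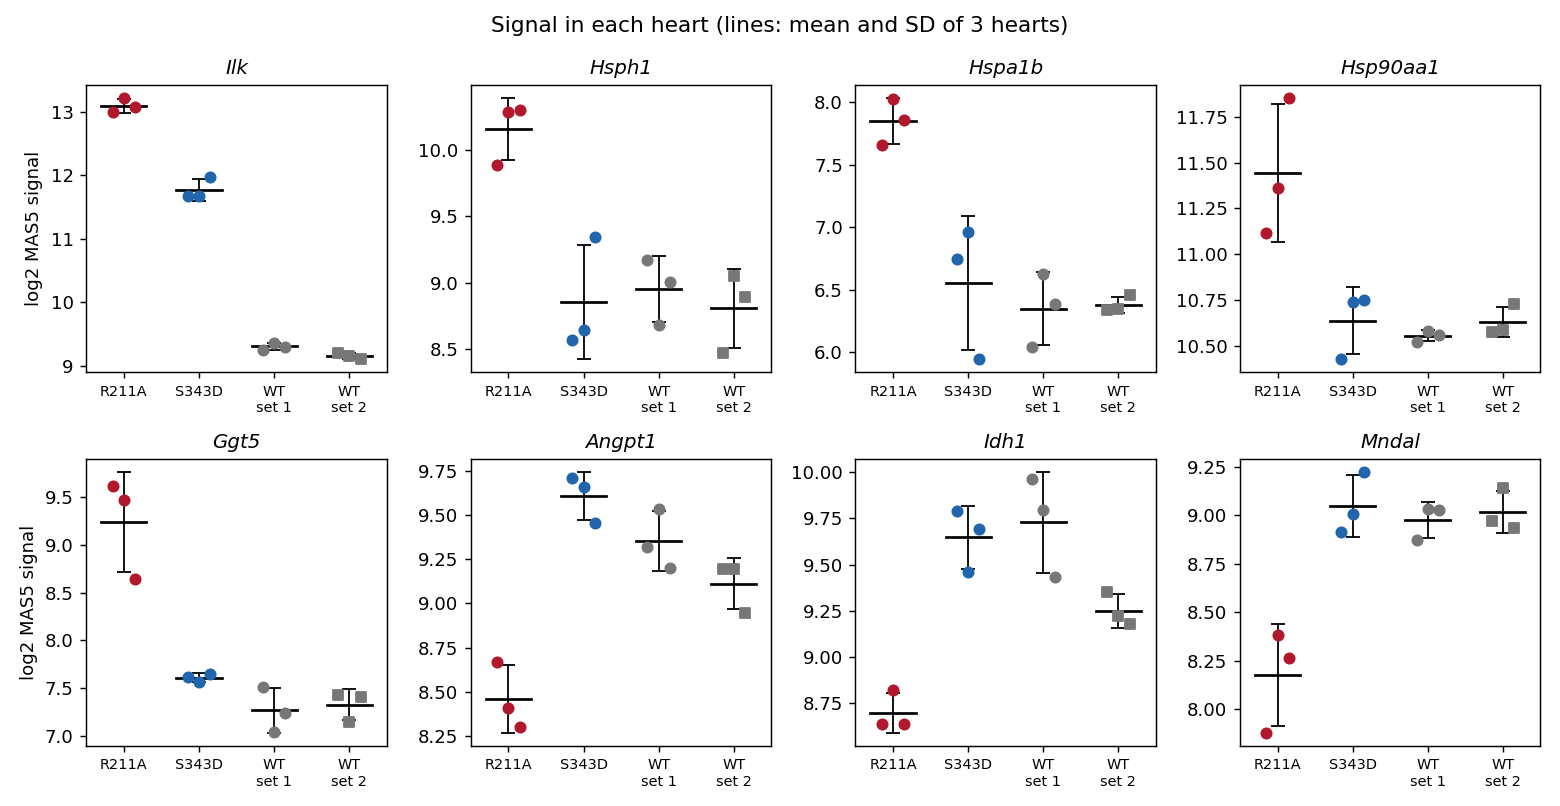
log2 MAS5 signal of 8 genes in each heart, with Tg R211A in red, Tg S343D in blue and the WT sets of heart numbers 1 to 6 (set 1, circles) and 7 to 12 (set 2, squares) in grey. Horizontal lines are means and bars are SDs of 3 hearts. The Tg R211A hearts lie above the Tg S343D hearts for Ilk, Hsph1, Hspa1b, Hsp90aa1 and Ggt5, and below them for Angpt1, Idh1 and Mndal, with no overlap.

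Heat shock factors bind repeats of GAA and its complement TTC, and the upstream sequences of called genes were searched for them. Those of 4 chaperone genes that rose are shown here because they held a match. They are the 250 bases before the start of transcription, from RefSeq (GRCm38.p6), written 5′ to 3′ on the strand of the gene, and capitals mark matches to GAANNTTC or TTCNNGAA, the arrangements of 2 facing repeats. The stretches are chr17:34972157-34972406, minus strand, chr17:34959239-34959488, minus strand, chr5:149636316-149636565, minus strand and chr5:135887669-135887918, plus strand, in that order.
Hspa1a: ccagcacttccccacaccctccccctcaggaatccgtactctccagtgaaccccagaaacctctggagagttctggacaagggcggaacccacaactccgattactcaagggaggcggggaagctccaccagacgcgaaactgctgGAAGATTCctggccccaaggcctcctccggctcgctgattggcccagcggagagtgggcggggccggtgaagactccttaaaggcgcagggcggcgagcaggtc
Hspa1b: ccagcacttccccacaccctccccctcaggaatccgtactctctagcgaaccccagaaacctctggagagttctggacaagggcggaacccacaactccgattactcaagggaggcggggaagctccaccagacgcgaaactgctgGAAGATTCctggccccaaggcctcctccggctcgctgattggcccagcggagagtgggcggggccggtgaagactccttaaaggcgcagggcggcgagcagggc
Hsph1: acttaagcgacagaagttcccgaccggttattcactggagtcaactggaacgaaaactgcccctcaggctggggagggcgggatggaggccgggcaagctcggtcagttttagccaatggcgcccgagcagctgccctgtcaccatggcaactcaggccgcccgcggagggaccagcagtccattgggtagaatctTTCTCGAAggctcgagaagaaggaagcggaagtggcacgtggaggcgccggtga
Hspb1: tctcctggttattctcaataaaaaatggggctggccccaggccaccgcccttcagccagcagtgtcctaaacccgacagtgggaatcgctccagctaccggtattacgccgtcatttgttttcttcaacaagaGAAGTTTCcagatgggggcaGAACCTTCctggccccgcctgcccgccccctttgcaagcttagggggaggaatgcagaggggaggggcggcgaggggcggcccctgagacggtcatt
The stretches of Hspa1a and Hspa1b have the same base at 247 of 250 positions, and both hold GAAGATTC. Both motifs are their own complement, so a match on one strand is a match on the other. Of the 12 genes named by higher probe sets, 9 had an entry, and 4 of these held a match in at least 1 stretch (44.4%), the 4 shown. The called co-chaperone genes Stip1 and Unc45b had an entry and no match. Of the 10 named by lower probe sets, 9 had an entry, and 1 held a match (11.1%). Over all 27025 genes with an entry the share was 14.5%. The longer form of 3 repeats, GAANNTTCNNGAA on either strand, was in none of the promoters of genes that passed and in 0.514% of all genes. A match describes the letters of this stretch, and binding was not measured.

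Inducible Hsp70 and its relatives Hsph1 and Hspa8 were higher in Tg R211A hearts. Hspa1a and Hspa1b encode the stress-inducible Hsp70 from neighbouring, near-identical genes, so their probe sets may share transcripts. Hspa1a had signals of 93.9, 168 and 142 in Tg R211A hearts, against 53.4, 40.5 and 33.8 in Tg S343D hearts and 28.9 to 55.1 in WT hearts. All 3 Tg R211A hearts lay above the other 9. The difference was 1.65 (SE 0.27, adjusted p = 0.0217). The means of 42.6 in Tg S343D hearts and 40.3 in WT hearts lay below the signal of 43.5 at which probe sets entered the test, so the size of this difference is not well fixed. It was 0.88 with 64 added to every signal. Hspa1b had signals of 202, 261 and 233 in Tg R211A hearts, against 108, 125 and 61.7 in Tg S343D hearts. It differed by 1.30 (SE 0.22, adjusted p = 0.0257), and its 2 other probe sets differed by 1.74 and 1.80, both with an adjusted p of 0.0108. Those 2 were dim, with means of 50.6 and 58.3 in Tg S343D hearts, near the filter signal of 43.5. The call of Hspa1b by the probe set read was lost without the filter. The call of Hspa1a rested on each of 4 hearts, replicates 2 and 3 of both lines, and that of Hspa1b on each of 5, all but replicate 2 of Tg S343D. Their adjusted p rose to 0.122 and 0.136 when 1 of those hearts was left out.

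Hsph1 encodes Hsp105, which exchanges the nucleotide of Hsp70 and keeps its cycle running. Its signals were 948, 1246 and 1263 in Tg R211A hearts, against 381, 401 and 652 in Tg S343D hearts and 356 to 576 in WT hearts. Replicate 3 of Tg S343D was the highest of its line and still lay below every Tg R211A heart. The difference was 1.30 (SE 0.20, adjusted p = 0.0163), 2.47-fold, and the second probe set gave 1.53 (SE 0.15, adjusted p = 0.000585). The call on the first probe set was lost when replicate 2 or 3 of Tg R211A was left out, or replicate 1 or 2 of Tg S343D, with an adjusted p of at most 0.115. Hspa8, the constitutive Hsc70 that is abundant in every cell, had signals of 6246, 7361 and 8087 in Tg R211A hearts and 4378, 5590 and 4940 in Tg S343D hearts. It differed by 0.54 (SE 0.10, adjusted p = 0.0431), a call that was lost after quantile normalization (adjusted p = 0.151), without the filter (0.111), with the WT sets as separate groups (0.0523) and with a replicate block (0.053). Its 3 other probe sets differed by 0.58, 0.61 and 1.01, of which the first passed (adjusted p = 0.0108). Its call on the brightest probe set was lost when replicate 2 or 3 of Tg R211A, replicate 1 or 3 of Tg S343D or any 1 WT heart other than replicate 2 of the first set was left out (adjusted p up to 0.258). Of 14 Hsp70 and Hsp110 genes with a measured level, these 4 were called. The next, Hspa4l, differed by 0.57 (adjusted p = 0.077). The endoplasmic reticulum members Hspa5 (BiP), Hyou1 and Hspa13 differed by -0.22, -0.16 and -0.09, the mitochondrial Hspa9 by 0.05, and Hspa2, Hspa4, Hspa12a, Hspa12b and Hspa14 by between -0.19 and 0.17, none past the threshold.

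Genes of the Hsp90 branch were also higher. Hsp90aa1, the inducible cytosolic Hsp90, had signals of 2217, 2628 and 3698 in Tg R211A hearts, against 1379, 1709 and 1720 in Tg S343D hearts and 1471 to 1695 in WT hearts. It differed by 0.80 (SE 0.14, adjusted p = 0.0331), and its 2 other probe sets by 1.13 and 0.88, both past the threshold. Stip1, the adaptor that hands clients from Hsp70 to Hsp90, had signals of 610, 624 and 712 in Tg R211A hearts, against 491, 458 and 457 in Tg S343D hearts, a difference of 0.47 (SE 0.08, adjusted p = 0.0431). Unc45b is a muscle co-chaperone of Hsp90 that folds the myosin head. Its signals were 2414, 2380 and 2730 in Tg R211A hearts and 1786, 1631 and 1807 in Tg S343D hearts, a difference of 0.53 (SE 0.09, adjusted p = 0.024). The calls of Stip1 and Unc45b were lost without any 1 of the 6 Tg hearts (adjusted p up to 0.236), and that of Hsp90aa1 without any 1 Tg heart other than Tg R211A replicate 1 (up to 0.206). Both Stip1 and Hsp90aa1 also lost it without any 1 of 4 WT hearts, replicates 1 and 3 of the first set and 1 and 2 of the second. Quantile normalization ended the calls of Hsp90aa1 and Stip1 (adjusted p = 0.0606 each), as did testing without the filter (0.0663 and 0.0656). These were the 3 called of 22 measured Hsp90 genes and co-chaperones, with a list median of 0.09. Hsp90b1, the endoplasmic reticulum Hsp90, differed by -0.16, and the mitochondrial Trap1 by 0.08. Smyd1, a methyltransferase that works with Unc45b in myosin assembly, differed by 0.10.

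The small heat shock protein Hspb1, which is highly expressed in heart muscle, passed by 1 of its 2 probe sets. That probe set had signals of 4092, 4931 and 4591 in Tg R211A hearts, against 2446, 2620 and 3205 in Tg S343D hearts, a difference of 0.72 (SE 0.12, adjusted p = 0.0203). The brighter one differed by 0.61 (adjusted p = 0.0801). Of 13 measured small heat shock and BAG genes, 12 lay above 0 and none passed by the probe set read. Cryab, the alpha B crystallin of the Z disc, differed by 0.28, and its partner Bag3 by 0.27. Among 15 cytosolic J-domain genes, which deliver clients to Hsp70, none passed. The largest were Dnajb1 (357, 601 and 515 in Tg R211A hearts and 269, 264 and 247 in Tg S343D hearts, a difference of 0.88, adjusted p = 0.129) and Dnaja1 (0.69, adjusted p = 0.166).

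Across a list of 24 measured HSF1 targets, 6 were called higher (25%, against 0.0983% of all genes), none was called lower, and 21 had an unadjusted p under 0.05 in the higher direction, against 3.91% of all genes. All 24 lay above 0, with a median of 0.41, where 48.9% of all genes lay above 0. The list was chosen with earlier results of these data known, so these counts and shares are a description. The 18 not called ranged from 0.15 (Hspa4) to 0.88 (Dnajb1). The mean deviation of the 24 genes from the WT mean was 0.33, 0.61 and 0.62 on the log2 scale in Tg R211A hearts, and -0.030, -0.041 and -0.019 in Tg S343D hearts. Single WT hearts lay between -0.078 and 0.074. Tg R211A replicate 1 thus had the smallest rise of its line and still lay above the other 9 hearts. The Tg S343D hearts fell inside the WT range. The list's median was 0.36 to 0.50 when any 1 Tg heart was left out. The number of members called was 6 without Tg R211A replicate 1 and 0 to 2 without any other Tg heart. The 6 called without Tg R211A replicate 1 were not the same 6, since Hspa1b lost its call.

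**Figure D2:**
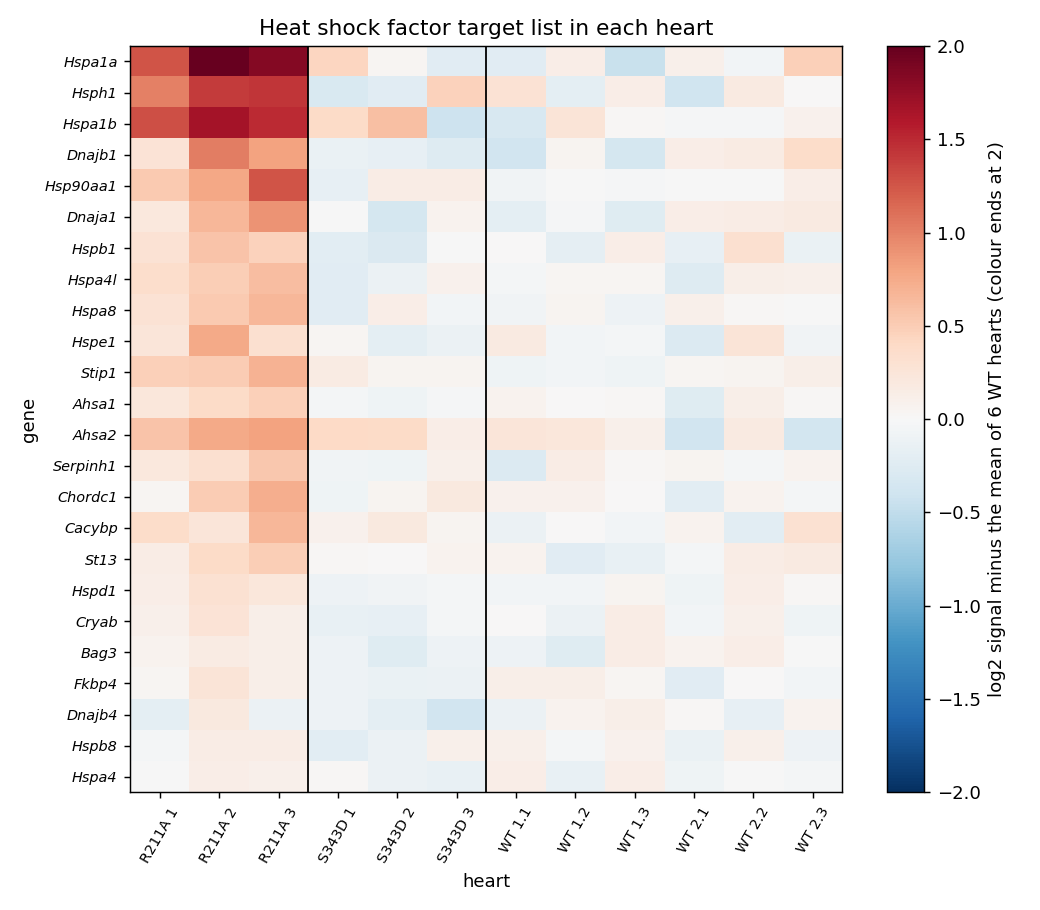
log2 signal minus the mean of 6 WT hearts for 24 HSF1 target genes (rows) in each heart (columns, Tg R211A, Tg S343D, then the WT sets 1 and 2). Red is above and blue below the WT mean, with colours ending at 2. The 3 Tg R211A columns are red for most genes, with means of 0.33, 0.61 and 0.62, and the Tg S343D columns resemble the WT columns.

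**Figure D3:**
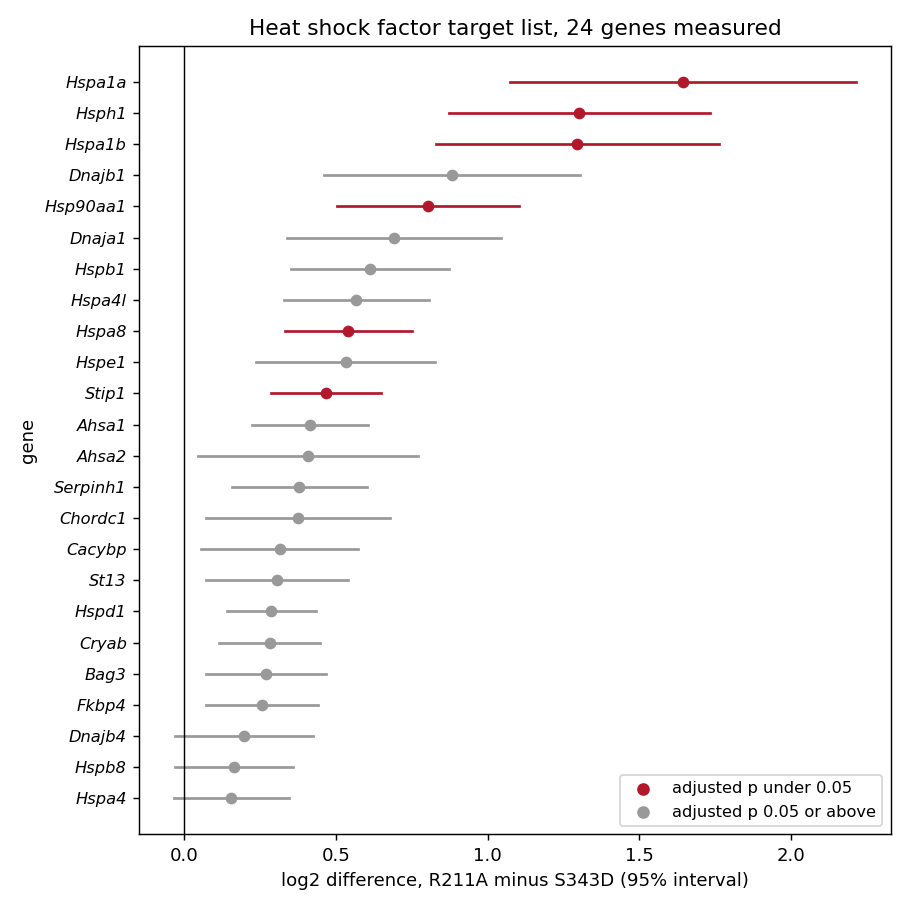
log2 difference between Tg R211A and Tg S343D hearts for 24 HSF1 target genes (points) with 95% intervals from limma (lines). The 6 red genes had an adjusted p under 0.05, and all 24 points lie above 0.

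The lists of other parts of protein quality control held no called gene. Of 31 genes of the endoplasmic reticulum stress list none was called, 12 lay above 0 and the median was -0.06. Within it, Atf6, a sensor of that stress, had signals of 517, 607 and 558 in Tg R211A hearts and 705, 730 and 764 in Tg S343D hearts, and Herpud1 differed by 0.50 in the other direction (adjusted p = 0.114 and 0.338). The dimmer probe sets of Atf6 differed by -0.12 and -0.04 (adjusted p = 0.866 and 0.98). Atf6 also lies in the chromosome 1 window described below. Of 31 proteasome genes none was called, with a median of 0.02. Of 13 chaperonin and prefoldin genes 9 lay above 0, with a median of 0.08, and 3 had an unadjusted p under 0.05 in the higher direction, against 3.91% of all genes. These were Cct2, Tcp1 and Cct6a, subunits of the cytosolic chaperonin that folds actin and tubulin, at 0.17, 0.17 and 0.20. Of 11 mitochondrial chaperone and protease genes 10 lay above 0, also with a median of 0.08. Their summed signal was 15881 to 17681 in Tg R211A hearts and 14080 to 14671 in Tg S343D hearts. WT hearts lay at 14318 to 15952. The lines thus did not overlap, as in 15% of all single probe sets tested. The partners Hspd1 and Hspe1, the mitochondrial Hsp60 and Hsp10, were highest, at 0.29 and 0.53 (adjusted p = 0.167 and 0.241).

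**Figure D4:**
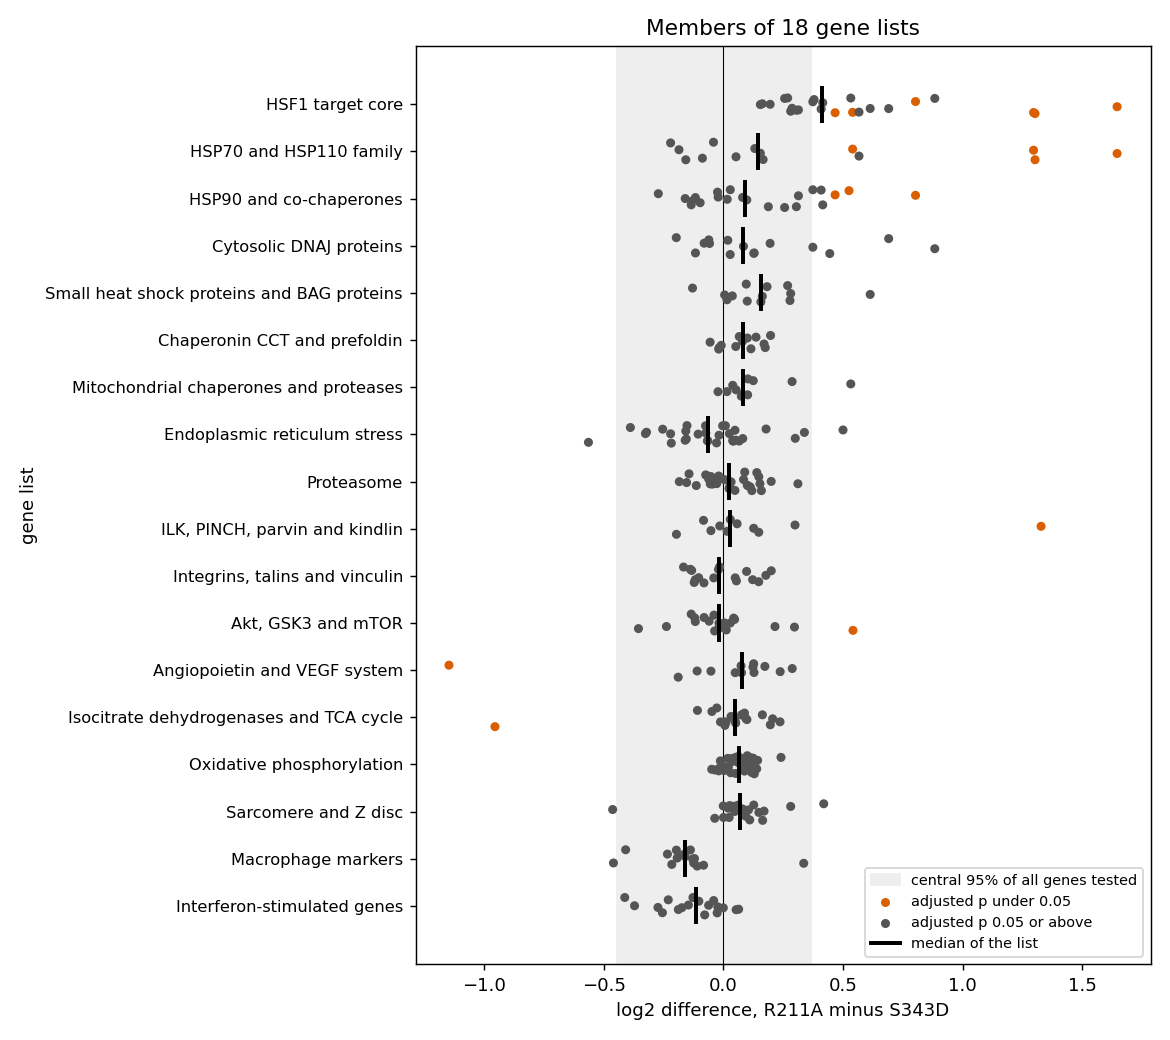
log2 difference between Tg R211A and Tg S343D hearts for the measured members of 18 gene lists (points), with the median of each list (black bar) and the range that holds the central 95% of all 11189 genes (grey band). Orange points had an adjusted p under 0.05. The median of the HSF1 target list is 0.41, and those of the endoplasmic reticulum stress and proteasome lists are -0.06 and 0.02.

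Among genes higher in Tg R211A hearts that are not chaperones, Ggt5 showed the widest gap. It encodes a gamma-glutamyl transferase that cleaves glutathione and leukotriene C4. Its signals were 783, 709 and 399 in Tg R211A hearts, against 196, 189 and 201 in Tg S343D hearts and 132 to 182 in WT hearts. Replicate 3 of Tg R211A had the lowest value of its line and stood well above all hearts of the other groups. The difference was 1.63 (SE 0.20, adjusted p = 0.0031), 3.1-fold, but a second probe set, at signals of 83.7 to 96.1 in Tg R211A hearts and 66.4 to 97.2 in Tg S343D hearts, differed by 0.13 (adjusted p = 0.888). Uap1, which makes UDP-N-acetylglucosamine for protein glycosylation, had signals of 612, 570 and 432 in Tg R211A hearts and 294, 297 and 242 in Tg S343D hearts. It differed by 0.95 (SE 0.14, adjusted p = 0.015), and its other probe sets by 0.86 and 0.95. Its call was lost when replicate 1 or 2 of Tg R211A or replicate 3 of Tg S343D was left out (adjusted p up to 0.0733). Akt1s1 encodes a proline-rich substrate of Akt that restrains mTOR complex 1. Its signals were 767, 769 and 783 in Tg R211A hearts, against 558, 546 and 491 in Tg S343D hearts, a difference of 0.54 (SE 0.08, adjusted p = 0.0103), and the dimmer probe set differed by 0.20 (adjusted p = 0.609). It was the 1 gene called of 19 in the Akt, GSK3 and mTOR list, in which Akt1 differed by -0.08, Akt2 by 0.04, Mtor by -0.02 and Gsk3b by -0.36 (adjusted p = 0.241). The call of Akt1s1 was lost without Tg R211A replicate 3 (adjusted p = 0.0621), whereas Ggt5, Angpt1, Mndal and Ilk passed without any 1 of the 12 hearts.

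Angpt1 had the largest decrease of the genes called by the probe set read. It encodes angiopoietin-1, the ligand of the endothelial receptor Tie2 that stabilises vessels. Its signals were 408, 340 and 316 in Tg R211A hearts, against 838, 809 and 701 in Tg S343D hearts and 493 to 742 in WT hearts. The Tg R211A hearts lay below every WT heart, whereas 2 of the 3 Tg S343D hearts lay above every WT heart. The difference was -1.15 (SE 0.13, adjusted p = 0.00205), a signal 2.21-fold higher in Tg S343D hearts, and a dimmer probe set went the same way by -0.71 (adjusted p = 0.106). Set against WT, Tg R211A hearts were at -0.77 (adjusted p = 0.0056) and Tg S343D hearts at 0.38 (adjusted p = 0.995). It was the 1 gene called of 13 in the angiopoietin and VEGF list. The Tie2 gene Tek differed by -0.11, the antagonist ligand Angpt2 by 0.29, Vegfa by 0.12 and its receptors Kdr and Flt1 by 0.07 and 0.08. The summed signal of 12 endothelial markers was 12659 to 14602 in Tg R211A hearts, 12731 to 14221 in Tg S343D hearts and 12531 to 14282 in WT hearts, so the ranges overlapped.

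Idh1, the cytosolic isocitrate dehydrogenase that makes NADPH, was the call closest to the threshold. Its signals were 397, 451 and 397 in Tg R211A hearts, against 887, 705 and 828 in Tg S343D hearts. The WT hearts with numbers 1 to 6 lay at 690 to 1001, close to the Tg S343D hearts, and those with numbers 7 to 12 at 579 to 654. The difference between the lines was -0.95 (SE 0.18, adjusted p = 0.0471) and came to -0.47 relative to the WT set in the same number range (adjusted p = 0.632). A second probe set differed by -0.08 (adjusted p = 0.912). With every array centred on its median the adjusted p was 0.161, and the call was lost without any 1 of the 6 Tg hearts, replicate 3 of the first WT set or replicate 1 of the second (adjusted p up to 0.26). The mitochondrial Idh2 differed by 0.20 and the Idh3 subunits by 0.00 to 0.08. Idh1 was the 1 gene called of 20 in the citric acid cycle list. Of 38 oxidative phosphorylation genes none was called and 33 lay above 0, with a median of 0.06, where 48.9% of all genes lay above 0. Ribosomal protein genes (17 of 19 above 0, median 0.07) and sarcomere and Z disc genes (19 of 22, median 0.07) had a like shift. Centring every array on its median moved the median of all probe sets to 0.06, so a shift of this size depends on the scaling.

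Several genes that differed lie near each other on chromosome 1. In the gene order of RefSeq (GRCm38.p6), Rgs5, Hsd17b7 and Uap1 fall within 5 measured genes of each other, and Mndal lies in the same stretch, with 48 measured genes from Rgs5 to Mndal. Mndal belongs to the interferon-inducible p200 family of nuclear DNA-binding proteins. Its signals were 235, 334 and 307 in Tg R211A hearts, against 482, 513 and 598 in Tg S343D hearts and 468 to 564 in WT hearts. It differed by -0.87 (SE 0.12, adjusted p = 0.0103), and a second probe set by -1.03 (adjusted p = 0.000905). A probe set that the annotation gives to Mndal, Ifi204, Ifi205 and Ifi211 together had signals of 120, 141 and 145 in Tg R211A hearts and 213, 247 and 237 in Tg S343D hearts. Ifi203 and Ifi209, also of this family, differed by -0.59 and -0.54 (adjusted p = 0.257 and 0.516). Of 8 genes listed for this family only 3 were measured, Mndal, Ifi203 and Ifi209, so the family as a whole is not described. The study lists Ifi202b, another member, as raised in Tg R211A hearts, and no value of it is given here. The gene order is that of C57BL/6J, and the copies of this family share sequence. Of 18 interferon-stimulated genes none passed and 16 lay below 0, with a median of -0.11.

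Hsd17b7, an enzyme of cholesterol synthesis, had signals of 158, 127 and 150 in Tg R211A hearts and 221, 213 and 266 in Tg S343D hearts. It differed by -0.69 (SE 0.12, adjusted p = 0.0342), and its 2 dimmer probe sets by -0.92 and -0.84, neither past the threshold. Its call was lost with every array centred on its median (adjusted p = 0.104), and without any 1 Tg heart or replicate 1 or 3 of either WT set (up to 0.163). Rgs5, a pericyte regulator of G protein signalling, passed by 1 dim probe set (-0.69, adjusted p = 0.024). Its brightest probe set differed by -0.12 and the other 2 by 0.19 and 0.03. A window of 190 measured genes was set around Ifi202b at this end of the chromosome, with earlier results of these data known. In it, 1 gene was called higher (Uap1) and 2 lower (Mndal and Hsd17b7), 1.58% of the window against 0.152% of all genes. At an unadjusted p under 0.05 there were 6 higher and 20 lower genes, where 3.91% of all genes were higher and 3.93% lower. These counts are a description. The window's median was -0.06.

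The other lowered genes were of varied function. Slc30a4, a zinc transporter of vesicles, had signals of 161, 172 and 183 in Tg R211A hearts, against 229, 267 and 270 in Tg S343D hearts and 198 to 240 in WT hearts, so the lines lay on either side of the WT mean (-0.57, SE 0.10, adjusted p = 0.0384). Agtpbp1, which trims the glutamates from tubulin tails, had signals of 443, 525 and 460 in Tg R211A hearts and 734, 705 and 669 in Tg S343D hearts (-0.57, SE 0.09, adjusted p = 0.0163). A dimmer probe set of Agtpbp1 differed by -0.21 (adjusted p = 0.784), and the mean over both did not pass (-0.39, adjusted p = 0.258). With every array centred on its median neither Slc30a4 (adjusted p = 0.121) nor Agtpbp1 (0.172) was called. The call of Slc30a4 was lost without any 1 Tg heart or 1 of 3 WT hearts, replicate 3 of the first set and 2 and 3 of the second, and that of Agtpbp1 without replicate 1 or 3 of Tg R211A or 1 or 2 of Tg S343D (adjusted p up to 0.188 and 0.108). Ttn, Capn7 and Xist passed by 1 probe set each, by -0.67, -0.49 and -0.49, whereas the probe set read for each differed by 0.06, -0.08 and -0.06. The 1 of Ttn, the titin gene, lay at 645, 607 and 601 in Tg R211A hearts, 1004, 1010 and 936 in Tg S343D hearts and 649 to 904 in WT hearts, so it was below WT in one line and above it in the other. Xist, the RNA of the inactive X chromosome, was present in all 6 Tg hearts, and none of 9 probe sets of Y-linked genes exceeded a signal of 29.7 in them, or 18.5 in the WT heart labelled male. By the probe set that passed, Xist had a signal of 529 in that heart, against 473 to 547 in the other WT hearts, so its values go against the label.

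Measured against WT littermates, most of the differences between the lines came with a shift in the Tg R211A hearts. In 35 of the 36 probe sets called, the 3 Tg R211A hearts lay outside the range of the 6 WT hearts, against 4.07% of all probe sets. The 3 Tg S343D hearts lay outside it in 4 of the 36, which were those of Ilk, Ggt5, Ttn and Xist, against 2.03% of all. These shares use the same Tg hearts that chose the 36 and are a description. Over all probe sets, 46 were called in Tg R211A against WT hearts (0.204%) and 1, that of Ilk, in Tg S343D against WT hearts (0.00444%). Both comparisons share the 6 WT hearts. The difference was also taken relative to the WT set in the same number range. All 36 kept their sign, and 2 of them passed, those of Ilk (1.48, adjusted p = 0.000232) and the second of Hsph1 (1.57, adjusted p = 0.0417), out of 3 probe sets called over all tested (0.0133%). The median of the HSF1 target list was 0.43 on this scale.

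**Figure D5:**
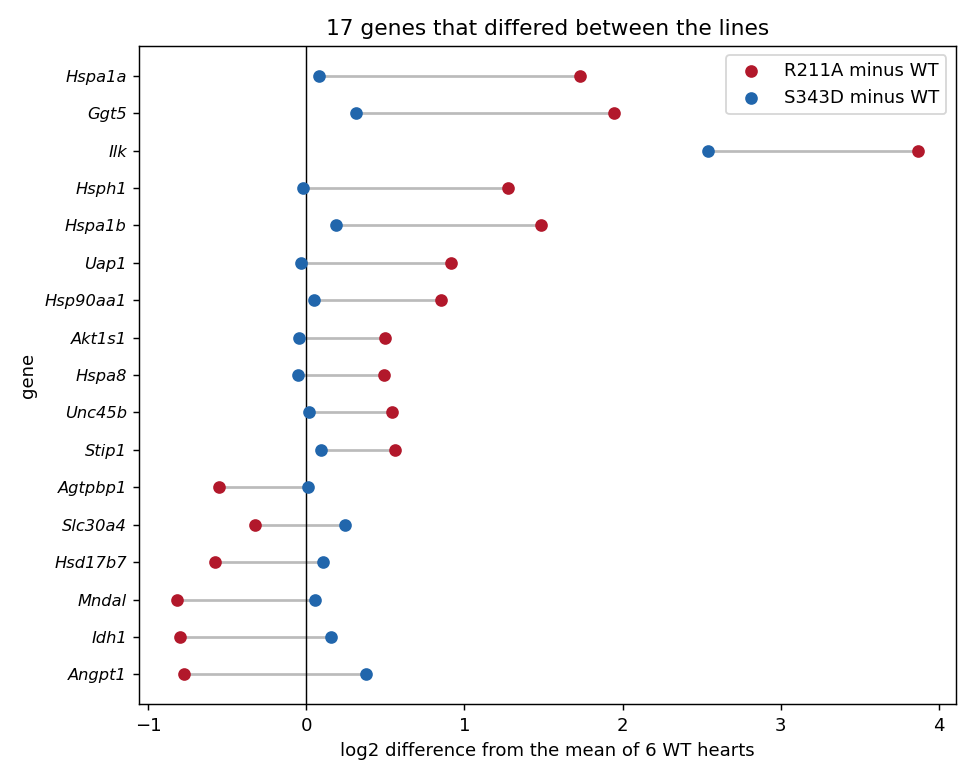
log2 difference of Tg R211A hearts (red) and Tg S343D hearts (blue) from the mean of 6 WT hearts for the 17 genes called between the lines by the probe set read. The red point lies farther from 0 than the blue point for each of the 17 genes, and the largest blue value after that of Ilk is 0.38, for Angpt1.

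Lists of collagen processing, fuel use and excitation held no called gene other than Ggt5 and Idh1, and their leading members are given as values. Of 22 collagen and matrix genes, 3 had an unadjusted p under 0.05 in the higher direction, against 3.91% of all genes, and the list's median was -0.04. P4ha1, a subunit of prolyl 4-hydroxylase, had signals of 291, 393 and 495 in Tg R211A hearts and 226, 246 and 237 in Tg S343D hearts (0.70, adjusted p = 0.125). Serpinh1, the collagen chaperone Hsp47, differed by 0.38 and P4ha2 by 0.59 (adjusted p = 0.276 and 0.379).

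Among 21 genes of NADPH and glutathione metabolism, 16 lay above 0 with a median of 0.15. Catalase (Cat), which breaks down hydrogen peroxide, went the other way, with signals of 1904, 1802 and 1914 in Tg R211A hearts and 2306, 2525 and 2163 in Tg S343D hearts (-0.31, adjusted p = 0.3). Of 20 glycolysis genes 17 lay above 0, with a median of 0.09 and no call. Pfkl, a phosphofructokinase subunit, differed by 0.32 by its brightest probe set (adjusted p = 0.106), and the largest difference in the list was 0.37. Among 22 genes of fatty acid use the median was 0.02, and Ucp3, the mitochondrial uncoupling protein of muscle, had signals of 461, 306 and 393 in Tg R211A hearts and 741, 784 and 706 in Tg S343D hearts (-0.96, adjusted p = 0.345). The WT hearts ranged from 308 to 959, and the difference in Ucp3 came to -0.23 relative to the WT sets. Of 14 calcium handling genes, Trdn, the triadin of the junctional sarcoplasmic reticulum, was nearest to the threshold at -0.30 (adjusted p = 0.226), and the calcium pump gene Atp2a2 differed by 0.18. None of 14 circadian clock genes passed, and Cry2, a repressor of the clock, varied within both lines, from 102 to 162 in Tg R211A hearts and from 131 to 242 in Tg S343D hearts.

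Markers of other cell types are given beside these results. The summed signal of 15 macrophage markers was 4308 to 4763 in Tg R211A hearts and 4910 to 5962 in Tg S343D hearts. These ranges did not overlap, and WT hearts lay at 3904 to 5710. Sums of other lists, among them glycolysis and cytosolic J-domain genes, did not overlap between the lines either. Of all single probe sets tested, 15% did not overlap. Of the 15 markers, 14 lay below 0, with a median of -0.16 and none past the threshold. Fcgr2b, an inhibitory antibody receptor of immune cells in the chromosome 1 window, had signals of 241, 329 and 246 in Tg R211A hearts and 440, 372 and 437 in Tg S343D hearts (-0.62, adjusted p = 0.101). The part of macrophage content in the p200, interferon and Fcgr2b values was not tested. Fibroblast, smooth muscle, adipocyte and neutrophil sums overlapped between the lines. None of 22 sarcomere and Z disc genes passed by the probe set read. Myh7, the fetal myosin heavy chain, had signals of 1236, 1323 and 1324 in Tg R211A hearts, 678, 504 and 335 in Tg S343D hearts and 325 to 1130 in WT hearts, a difference of 1.41 that did not pass (SE 0.37, adjusted p = 0.242) and came to 0.32 relative to the WT sets. Angptl4, a target of fatty acid receptors, differed by -1.68 (adjusted p = 0.402), with WT hearts between 41.7 and 352, and by -0.77 relative to the WT sets.

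Of the 36 probe sets, 6 could not be named from the platform's annotation as a single gene. The largest difference among these was in 1455136_at, with signals of 414, 401 and 373 in Tg R211A hearts and 111, 126 and 183 in Tg S343D hearts (1.53, adjusted p = 0.0163). The brightest was 1416364_at, with signals of 4478, 4690 and 4829 in Tg R211A hearts and 2867, 3128 and 3311 in Tg S343D hearts (0.59, adjusted p = 0.00751). The genes next below the threshold in the lower direction included Ipo13, an importin (-0.41, adjusted p = 0.0945), and Slc25a22, a mitochondrial glutamate carrier, with signals of 481, 448 and 383 in Tg R211A hearts and 1144, 631 and 958 in Tg S343D hearts (-1.02, adjusted p = 0.12).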

How the data were processed

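One table of 45101 features for 12 mouse hearts was used. Its values are MAS5 signal intensities on a linear scale, which the authors computed with Affymetrix software and scaled on each array before deposit. Neither the labels nor the methods name a MAS5 version or detection call, and probe-level files were not analysed here.

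Signals of all features except 64 array controls were taken to log2, with nothing added. Probe sets with a mean log2 at or above the median were tested with limma 3.58.1 in R 4.3.3 (3 genotype groups over all 12 arrays, empirical Bayes with a trend, contrast R211A minus S343D, two-sided) and called at a Benjamini-Hochberg adjusted p under 0.05. The spread is thus shared with the 6 WT hearts. Probe sets were named by the platform annotation (34945 with 1 gene, 932 with several, 9160 with none), and a gene was read from its brightest tested probe set that names it alone. Gene lists are described by counts and medians, with no set test.

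The genes compared and the lists were chosen with earlier results of these data known. Genes named are Ilk, Hsph1, Angpt1 and Idh1, the called genes of each direction whose groups did not overlap, the 10 uncalled lower genes of smallest p, up to 4 members per list, all members of 4 short lists, called genes of the chromosome 1 window and 5 sex-linked genes. Clu, the unnamed probe sets, Hspb1, Rgs5, Ttn and Capn7 as called by a second probe set, other list members and genes near a threshold were named after their values were seen. The methods of the study describe hybridised groups with and without infarction, which the labels do not name.

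In 10 simulated datasets of 22519 probe sets with 36 changed each, 29.2% of 1.5-fold, 61.7% of 2-fold and 86.7% of 3-fold changes were recovered between the lines, and 5 of 218 calls were false. The simulation drew each probe set independently and held no effect of number range, so its share of false calls leaves that effect out. Alternatives covered scaling, offsets, filters, the prior variance, weights, the arrays in the fit, a replicate block, the control sets, each heart left out, the probe set and the threshold. Upstream sequences were searched with Python 3.11.15 and figures drawn with matplotlib 3.10.9.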

Additional observations from a re-analysis of the deposited data

Results flagged for a closer look

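In 3 of the probe sets called between the lines, 1 of the 6 WT hearts stood apart from the others, by the gap to its nearest neighbour over the group's range. About 1 in 20 groups is marked by chance. The probe set of Mndal, Ifi204, Ifi205 and Ifi211 had a signal of 247 in replicate 2 of the first WT set, against 188 to 202 in the other WT hearts. The unnamed 1447096_at had 172 in replicate 1 of the second WT set, against 132 to 142 in the others. Hsp90aa1 had 1695 in replicate 3 of the second WT set, against 1471 to 1539 in the others, still below the lowest Tg R211A heart at 2217.

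Set against the 3 WT hearts of its own number range, the change differed between the lines in 3 probe sets by limma's test of that difference (0.0133% of those tested). That of Ilk was 3.95 in Tg R211A hearts and 2.47 in Tg S343D hearts, a difference of 1.48 (SE 0.12, adjusted p = 0.000232). That of Hsph1 was 1.40 in Tg R211A hearts and -0.17 in Tg S343D hearts, a difference of 1.57 (SE 0.22, adjusted p = 0.0417). This was its dimmer probe set, and the brighter one came to 1.45 and did not pass (adjusted p = 0.239). That of Clu, which encodes the extracellular chaperone clusterin, was 0.56 in Tg R211A hearts and -0.17 in Tg S343D hearts, a difference of 0.73 (SE 0.10, adjusted p = 0.0417). This was not the brightest probe set of Clu. Clu had signals of 3433, 3332 and 3379 in Tg R211A hearts and 2406, 2694 and 2417 in Tg S343D hearts, with 2685 to 2995 in the first WT set and 2161 to 2424 in the second. Compared directly between the lines it differed by 0.43 and did not pass (adjusted p = 0.156).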

How the results depend on the processing

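Ilk differed between the lines under every alternative, by 1.27 to 1.48 on the log2 scale. Against 21 higher and 15 lower probe sets as reported, there were 23 and 5 after centring every array on the median signal, which moved the median of all probe sets to 0.06 and the share of higher calls to 82.1% from 58.3%, 29 and 26 with array weights, 7 and 9 with only the 6 Tg arrays and 3 and 2 without a trend in the prior variance. Relative to the WT set in the same number range there were 3 and 0 in limma's test, with 1568 at an unadjusted p under 0.05. There were 960 and 942 at an unadjusted p under 0.05, and 23 lower ones at an adjusted p under 0.1. With 1 heart left out there were 5 to 27 higher and 3 to 22 lower, and in all 10 without Tg R211A replicate 3, 14 without replicate 2, 16, 14 and 18 without Tg S343D replicate 1, 2 or 3, and 28 to 49 without another heart. The 36 probe sets kept their direction in each setting that tested them, and 26 of them were called with centred arrays. By the probe set read, of the 16 genes called besides Ilk, 12 kept the call with centred arrays (all but Agtpbp1, Hsd17b7, Idh1 and Slc30a4), 13 after quantile normalization (all but Hsp90aa1, Hspa8 and Stip1), 9 without the filter (10 higher and 6 lower genes became 6 and 3), 3 with only the Tg arrays (Ggt5, Angpt1 and Idh1), 2 without a trend (Ggt5 and Angpt1), 14 with a replicate block (all but Hspa8 and Slc30a4) and 0 relative to the WT sets, where adjusted p was 0.208 to 0.632. With a replicate block there were 31 and 18. Deviations of same-numbered hearts from the mean of their line had r of -0.02, -0.20 and -0.01 over probe sets. Hearts of unlike number had r of -0.11 to 0.13. Such deviations from a mean of 3 hearts cannot settle whether the numbers pair samples. Some uncalled chaperones changed sign. Hspa9 was at -0.0021 after quantile normalization, and Hspb8 was at -0.021 as the mean over its probe sets. Hspa12a was at 0.027 with centred arrays, 0.019 as the mean over its probe sets, and between -0.10 and 0.062 with 1 heart left out. The causes were not tested. Signal near the filter and 3 hearts per line limit all values.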
